A study of Homo sapiens with 2 samples.

Results

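The S100 proteins and the annexins are families of calcium-binding proteins that act by gripping other proteins or membranes, and their RNA was compared between 2 libraries of OVSAHO cells. OVSAHO is an established line of human cells grown from a serous ovarian tumour. Symbols were matched by their letters: 22 began with S100 and then A, B, G, P or Z, and 12 were ANXA followed by digits alone. S100PBP, which encodes a binding partner of S100P and no S100 protein, and S100A7L2, a pseudogene in RefSeq, were set apart. That left 32 genes, 20 S100 genes and 12 annexins, of 26255 listed. The group was chosen by values of this same comparison, in which S100A4, S100A6 and S100A16 were known to be lower and S100A10 was known not to be, so the differences below describe these libraries and test nothing.

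The perturbed library came from cells with stable SMARCA2 and knockdown of SMARCA4 by their genotype label, and the series text adds that SMARCA2 was raised. SMARCA2 and SMARCA4 are the alternative ATPases of the SWI/SNF chromatin remodelling complex. The control library has the genotype label WT, and the series text calls these cells OVSAHO-Ctrl-siNC and the perturbed ones OVSAHO-A2-siA4, without spelling the short forms out. Both cultures received carboplatin, a DNA-crosslinking platinum drug, at 25 µM for 2 days, so there was no culture without the drug. There was 1 library per group. The sample titles carry a number each that may or may not mark a clone, which the labels do not say.

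S100 proteins are small proteins with paired EF-hands, the loop in which calcium is held. They mostly act as dimers, and calcium opens a surface with which they grip a target such as myosin, a ubiquitin ligase adaptor or an annexin tail. Annexins bind calcium in another way, through repeats that lay the protein flat on acidic phospholipid, and they bridge membranes, patch tears and carry proteins to the cell surface. The families meet in fixed pairs: S100A10 with annexin A2, S100A11 with annexin A1, and S100A6 with annexin A11. In carcinomas S100A4 is best known from motile and invasive cells, and most S100 genes lie side by side in 1 cluster on chromosome 1.

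Levels are FPKM, that is fragments for each kilobase of a transcript and each 1000000 fragments mapped. Division by length makes levels of different genes only roughly comparable, and overlapping genes can share fragments. A fold is the ratio of the deposited FPKM. A log2 ratio is perturbed over control after 1 FPKM was added to each. A gene was tested against a rule of size if either library held it at 1 FPKM or more, and was called higher or lower at a log2 ratio of at least 1 or at most -1. Intervals in brackets are 95% exact binomial (Clopper-Pearson) intervals on fragment numbers estimated from FPKM. They cover counting error at most and treat each fragment as independent. PCR copies are not independent molecules, so the intervals are too narrow where copies were counted. No error between cultures could be measured.

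The libraries had about 8850000 fragments (perturbed) and 9050000 fragments (control) behind their FPKM. SMARCA2 was at 2.60 FPKM (perturbed) and 0.205 FPKM (control), and SMARCA4 at 4.49 and 27.9 FPKM, the directions the series text states. The tissue label was checked on 8 ovarian epithelial markers. PAX8 (42.1 and 21.9 FPKM), EPCAM (40.9 and 27.1), KRT8 (462 and 488), KRT18 (362 and 420) and MSLN (45.2 and 43.3) were present in both libraries. WT1 was at 5.52 and 1.53 FPKM and KRT7 at 119 and 539.6 FPKM, while MUC16 was listed at 0 and at 0.0608. Of 11785 genes tested over the whole table, 897 (7.61%) were lower and 925 (7.85%) were higher in the perturbed library, so 50.8% of the called genes were higher. That share was 64.7% (1257 higher, 685 lower) with each library scaled to the same sum, which moves every log2 ratio by 0.14, and 62.9% (1158 and 684) after centring on the median.

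Of the 20 S100 genes, 11 passed the filter, 6 of them were lower in the perturbed library, none was higher and 5 lay within 2-fold. The share of all tested genes that were lower was 7.61%, and nothing is read from the contrast with it, since the same ratios chose the family. The 6 were S100A2, S100A3, S100A4, S100A5, S100A6 and S100A16. All 6 were lower under every alternative scale, pseudocount and filter tried, and S100A16 alone was past a 4-fold rule. The filters could remove none of the 6, since all were above 5 FPKM in both libraries. The median log2 ratio was -1.42 over the 11 genes that passed and 0 over all 20, of which 8 were listed at 0 in both libraries. Over all genes tested it was -0.06.

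S100A4, which binds the heavy chain of non-muscle myosin and is known from metastatic cells, was at 1026 FPKM (perturbed) and 3124 FPKM (control). This was a 3.04-fold lower level (2.93 to 3.16), and its rank among all genes by FPKM went from 34 in the control to 162. S100A6, or calcyclin, which binds the ubiquitin ligase adaptor CACYBP, was at 1084 and 2999 FPKM, 2.77-fold lower (2.67 to 2.86), with ranks of 36 in the control and 158. These neighbours were the most abundant S100 mRNAs of the control, and their levels stayed close to each other: the S100A4 level was 1.04 times that of S100A6 in the control and 0.947 times in the perturbed library.

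S100A16, a broadly expressed member with only a weak calcium response, showed the largest ratio among the members. It was at 40.6 FPKM (perturbed) and 263 FPKM (control), 6.46-fold lower (5.77 to 7.27), on about 340 and 2248 fragments. S100A2, a mainly nuclear S100 protein of epithelia that can bind p53, was at 37.5 and 109.7 FPKM, 2.92-fold lower (2.54 to 3.37). S100A3, a cysteine-rich protein best known from the hair cuticle, was at 6.52 and 19.2 FPKM, 2.94-fold lower (2.02 to 4.36). S100A5, known mainly from olfactory neurons, was at 6.66 and 25.6 FPKM, 3.85-fold lower (2.56 to 5.95). The last 2 rested on about 37.9 and 30.1 fragments in the perturbed library, which is why their intervals are wide. S100A5 overlaps S100A4 in RefSeq, so part of its signal could be fragments of its far more abundant neighbour, which was not tested.

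The other S100 genes that passed the filter went in either direction by less than 2-fold. S100A10, which has lost the ability to bind calcium and holds annexin A2 at the membrane, was at 716 FPKM (perturbed) and 483 FPKM (control), 1.48-fold higher (1.43 to 1.54). S100A11, the partner of annexin A1, was at 1529.6 and 2144 FPKM, 1.40-fold lower (1.35 to 1.45). S100A13, which helps export growth factors that lack a signal peptide, was at 1274 and 1087 FPKM, 1.17-fold higher (1.13 to 1.22). With S100A4 and S100A6 these 3 had the highest FPKM of the family in both libraries.

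S100A1, the S100 protein of heart and skeletal muscle, was at 36.8 and 33.8 FPKM, 1.09-fold higher with an interval from 0.843 to 1.41 that includes no difference. It lies on the other strand of S100A13, and the library kit does not mark strand, so the fragments of the pair cannot be told apart where the genes overlap. S100P, an ezrin-binding member first found in placenta, was at 1.46 and 1.43 FPKM, about 14.0 fragments in each library. Its ratio of 1.02 (perturbed over control) had an interval from 0.452 to 2.31, so a 2-fold difference was not detectable at this depth.

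The remaining 9 S100 genes did not reach 1 FPKM in either library. S100A8 and S100A9, which form the neutrophil protein calprotectin, were listed at 0 in both libraries, as were S100A12 of granulocytes, S100A7 and S100A7A of inflamed skin, S100B of glia and melanocytes, S100G of the gut, and S100Z. S100A14, an epithelial S100, was at 0.263 and 0.257 FPKM, about 2.00 fragments in each library. A 0 is what the table lists and no proof of absence. Of 8 leukocyte markers none reached 1 FPKM, 6 were at 0 in both libraries, PTPRC, MPO and CSF3R among them, and the list summed to 0.256 FPKM in the perturbed library and 0.251 in the control. The 7 fibroblast markers summed to 0.134 and 0.154 FPKM with COL1A2, COL3A1 and DCN at 0. The 3 endothelial markers summed to 0.411 and 0.349 FPKM. Of 6 keratinocyte markers only KRT10 (42.7 and 33.8 FPKM) was at 1 FPKM or more, with KRT1 and IVL at 0.

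**Figure D1:**
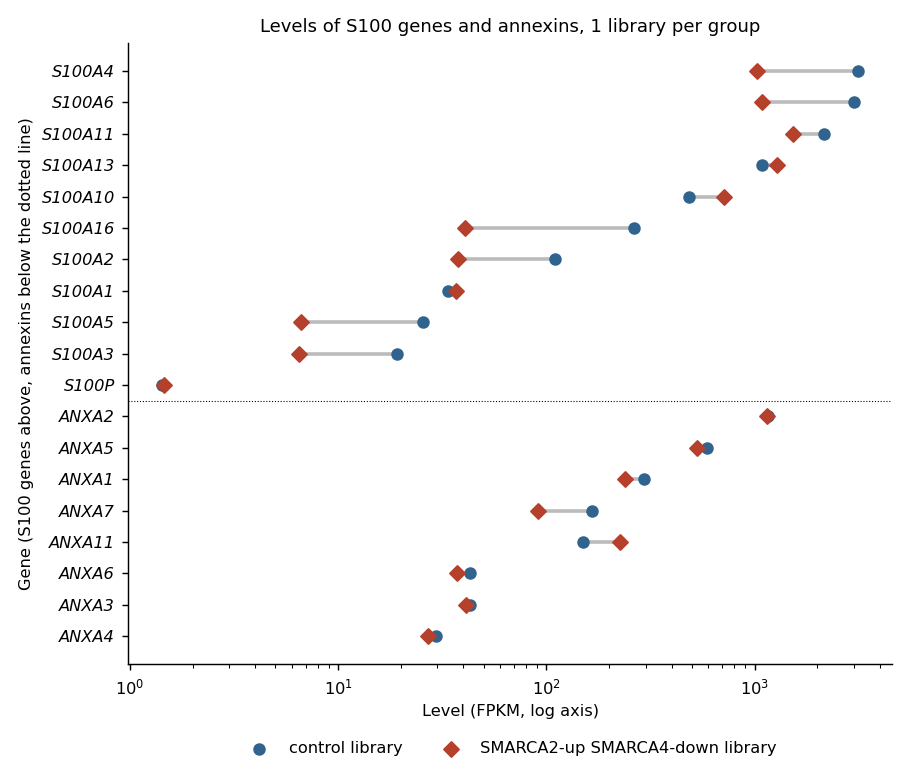
FPKM on a log axis for the 19 S100 genes and annexins that had 1 FPKM or more in at least 1 library, with 1 point per library (blue circles, control; red diamonds, perturbed) and no error bars because each group had 1 library. S100A4, S100A6, S100A16, S100A2, S100A5 and S100A3 have long connecting lines with the perturbed level to the left, and the annexins have short ones.

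**Figure D2:**
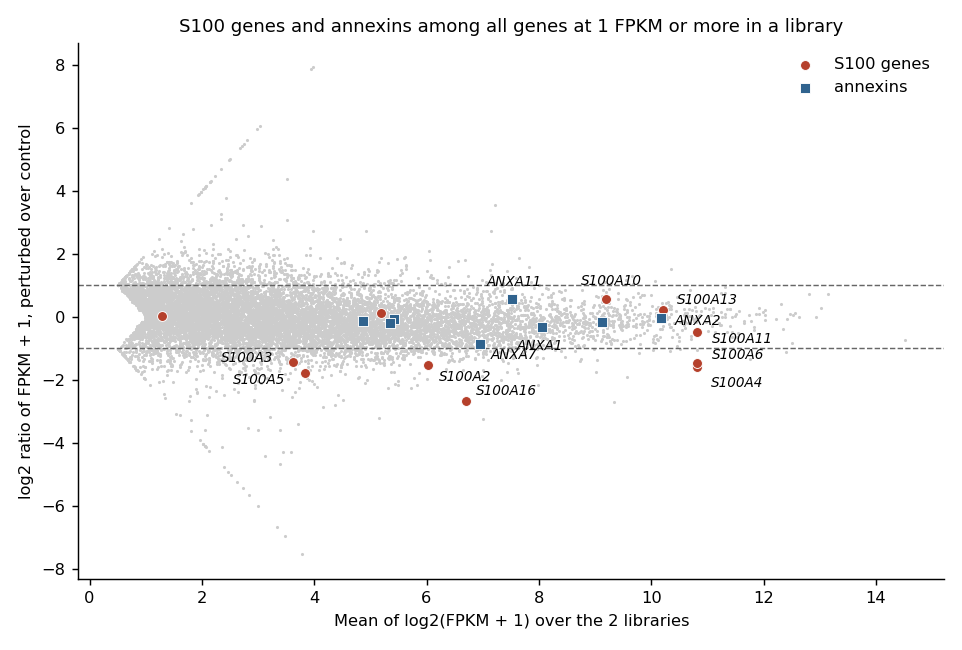
Log2 ratio of FPKM + 1 (perturbed over control) against the mean log2(FPKM + 1) of the libraries, with grey points for the 11785 genes at 1 FPKM or more in a library, red circles for S100 genes, blue squares for annexins and dashed lines at the 2-fold rule. S100A16 lies at -2.66, S100A4 at -1.60 and S100A6 at -1.47, and every annexin lies between the dashed lines.

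The 6 lower S100 genes were neighbours. In the gene order of RefSeq on GRCh38.p14, chromosome 1 reads S100A6, S100A5, S100A4, S100A3, S100A2 and S100A16 with no other protein-coding gene of the tables between them, and these 6 had log2 ratios from -2.66 to -1.42. The gene after S100A16 is S100A14, which was too low to compare, followed by S100A13 and S100A1, neither of which was lower. On the other side of S100A6 came genes listed at 0 in both libraries, S100A7, S100A7A, S100A8, S100A12 and S100A9, then the skin genes of the epidermal differentiation complex, and beyond them S100A11 and S100A10. Summed over the 6 genes the level was 2202 FPKM (perturbed) and 6541 FPKM (control), 2.97-fold lower in the perturbed library. Summed over the other 10 S100 genes of the cluster it was 3556 and 3748 FPKM, 1.05-fold lower. The block was bounded by the genes that were lower. S100A4, S100A6 and S100A16 within it and S100A10 outside it had chosen the family, so nothing is read from this contrast.

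**Figure D3:**
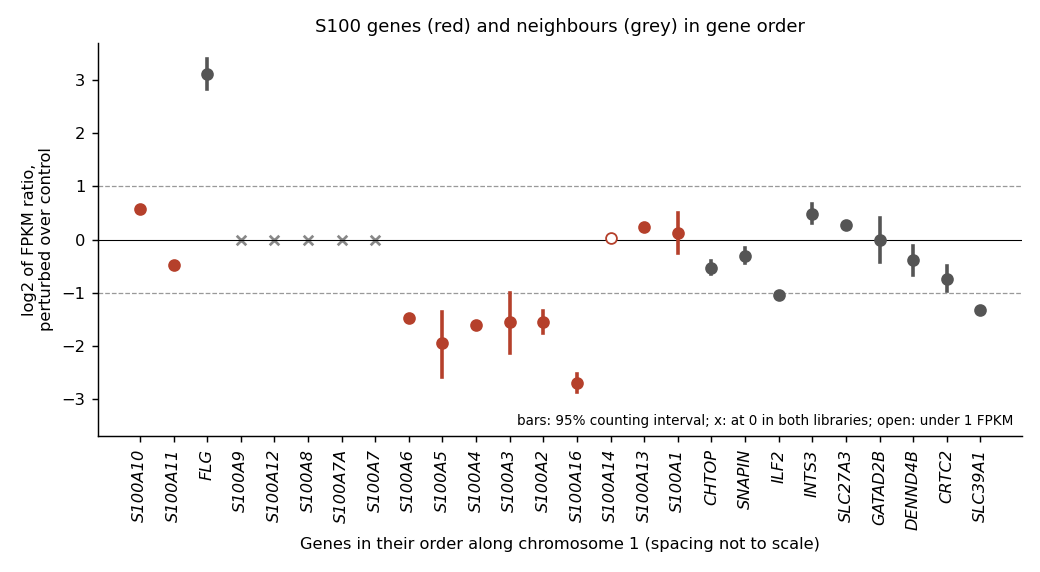
Log2 of the FPKM ratio (perturbed over control, no pseudocount) for S100 genes in red and for other protein-coding genes at 1 FPKM or more in grey, placed in their order along chromosome 1 from S100A10 to SLC39A1, with bars for 95% counting intervals. The 6 adjacent points from S100A6 to S100A16 lie below the dashed line at -1, while S100A10, S100A11, S100A13 and S100A1 lie between the dashed lines.

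The genes around the cluster were measured as well. From S100A10 to SLC39A1, RefSeq and the tables share 71 protein-coding genes, of which 20 passed the filter. Outside the block of 6, 14 passed, with 1 higher, 2 lower and a median log2 ratio of -0.15. For comparison, the rule called 7.85% of all tested genes higher and 7.61% lower, and their median was -0.06. Nothing is read from the contrast with so few genes. The 2 lower ones were ILF2, an RNA-binding partner of NF90, at 352 and 721 FPKM (2.05-fold), and the zinc importer SLC39A1 at 171 and 426 FPKM (2.50-fold, 2.40 to 2.60). ILF2 was no longer past 2-fold with the libraries scaled to a common sum (log2 ratio -0.89), after centring (-0.93) or once trends on length, GC and level were taken out (-0.77). CHTOP (50.5 and 72.9 FPKM), SNAPIN (103 and 127) and INTS3 (13.7 and 9.80), which lie between S100A1 and SLC39A1, were within 2-fold.

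Over a longer stretch the neighbourhood of the block was lower too. Of the 50 tested protein-coding genes before S100A6, 41 had a ratio below 0, 10 were lower by the rule and 2 higher, with a median log2 ratio of -0.39. Of the 50 after S100A16, 40 were below 0, 13 were lower and none was higher, with a median of -0.53. Of all genes tested 7.61% were lower, and of the 1059 on chromosome 1 outside the block 117, or 11.05%. A log2 ratio below 0 was found for 6301 of the 11785 genes tested and for 645 of the 1059. Those 1059 had a median of -0.20, the second lowest of 23 chromosomes. Along it, in 22 windows of up to 50 genes counted from the block, the window right after S100A16 had the lowest median, and the next had -0.47. The 6 S100 genes were below the lower quartile of the windows on either side (-0.74 before and -1.01 after). They had been taken for a log2 ratio of at most -1, which largely set this outcome, so nothing is read from it. The part of this regional difference in the S100 values was not tested. These windows were laid out after the S100 values had been seen.

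**Figure D4:**
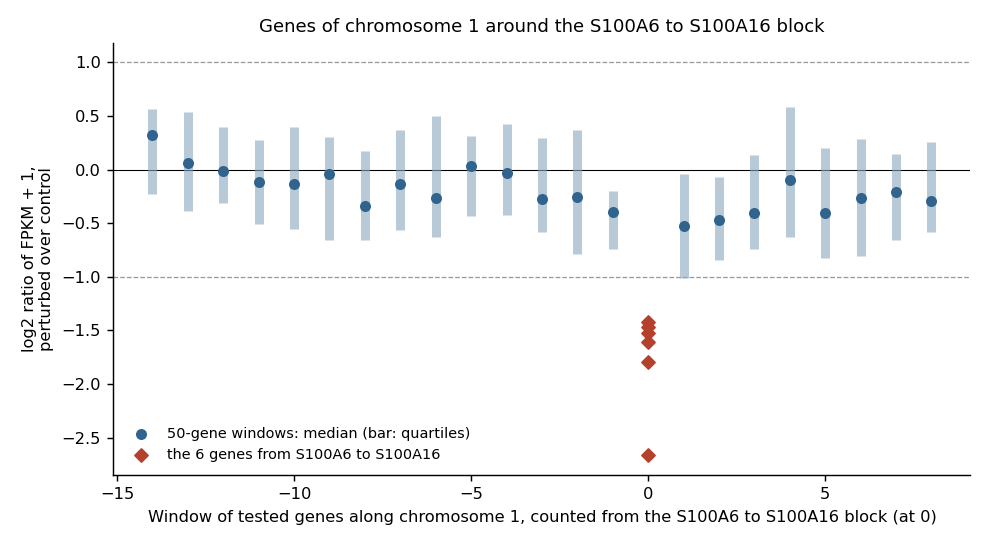
Median log2 ratio of FPKM + 1 (blue points; bars, lower to upper quartile) in windows of up to 50 tested protein-coding genes in gene order along chromosome 1, numbered from the block of S100 genes at 0, whose 6 members are red diamonds. The windows next to the block have medians of -0.39 and -0.53, and the 6 S100 genes lie lower, from -1.42 to -2.66.

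Sequences before start sites in the cluster are given as a description, and whether they bear on the levels was not tested. The 250 bases before the most upstream RefSeq start are shown for the 3 lower genes of highest control level and for S100A10 and S100A13, cluster members that were not lower. Sequences are from RefSeq on GRCh38.p14, run 5′ to 3′ on the strand of the gene (the minus strand for all 5), and capitals mark matches to any of 5 motifs searched on both strands. The TATA box was read as TATAAA. The GC box was read as GGGCGG, and its matches may overlap each other, as they do in S100A6. The AP-1 motif was read as TGANTCA. The TEAD motif was read as GGAATG, and the last was CCAAT. Matches of different motifs do not overlap in the sequences shown.
S100A4, chr1:153545807-153546056: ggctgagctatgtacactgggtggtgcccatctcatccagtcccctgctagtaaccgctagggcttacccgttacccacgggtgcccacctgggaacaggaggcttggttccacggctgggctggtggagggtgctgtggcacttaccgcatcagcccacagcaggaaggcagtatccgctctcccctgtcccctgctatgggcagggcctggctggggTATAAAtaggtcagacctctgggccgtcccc
S100A6, chr1:153535992-153536241: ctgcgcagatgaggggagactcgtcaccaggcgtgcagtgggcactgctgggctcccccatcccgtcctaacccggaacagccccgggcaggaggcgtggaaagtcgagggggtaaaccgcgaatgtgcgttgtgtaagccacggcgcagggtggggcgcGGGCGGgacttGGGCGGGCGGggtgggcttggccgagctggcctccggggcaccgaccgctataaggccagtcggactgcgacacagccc
S100A16, chr1:153613138-153613387: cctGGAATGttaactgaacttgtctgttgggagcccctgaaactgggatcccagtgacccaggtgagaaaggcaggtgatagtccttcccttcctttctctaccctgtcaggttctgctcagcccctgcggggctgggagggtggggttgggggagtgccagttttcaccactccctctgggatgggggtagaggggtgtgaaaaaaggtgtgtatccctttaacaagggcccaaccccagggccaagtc
S100A10, chr1:151993860-151994109: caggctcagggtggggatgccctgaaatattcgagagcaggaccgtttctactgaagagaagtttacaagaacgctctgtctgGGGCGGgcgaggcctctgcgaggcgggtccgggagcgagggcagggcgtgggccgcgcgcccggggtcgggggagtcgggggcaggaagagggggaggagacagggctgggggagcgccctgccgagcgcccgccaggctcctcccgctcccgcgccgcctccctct
S100A13, chr1:153634362-153634611: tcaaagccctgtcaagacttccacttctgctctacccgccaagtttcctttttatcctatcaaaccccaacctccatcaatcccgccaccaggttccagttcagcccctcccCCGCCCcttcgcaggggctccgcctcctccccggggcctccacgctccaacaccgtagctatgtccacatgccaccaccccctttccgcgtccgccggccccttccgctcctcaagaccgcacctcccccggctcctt

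In the sequences shown, these 3 lower genes share none of the 5 motifs. S100A4 has a TATA box close to its start, S100A6 has 3 GC boxes and no TATA box of these letters, and S100A16 has a TEAD motif at the upstream end and none of the others. S100A10 and S100A13 have 1 GC box each. Windows of 300 bases, from 250 before to 50 after a start, were counted for 29 of the 32 members; S100B, ANXA8 and ANXA13 had none. Among the most upstream windows of the 6 lower S100 genes, 2 held a GC box, 2 an AP-1 motif (S100A2 and S100A3), 1 a TATA box, 1 a TEAD motif and 1 CCAAT. Among those of the 5 S100 genes within 2-fold, 3 held a GC box and 1 a TATA box. Over all 35116 windows of the table, 45.0% held a GC box, 7.71% an AP-1 motif, 11.5% a TATA box, 14.0% a TEAD motif and 34.6% CCAAT. The number of CG dinucleotides per window was 31 for S100A6 and from 3 to 8 for the other 5 lower genes, against 32 for S100A10, 22 for S100A11 and 19 for S100A13 but 6 for S100A1 and 5 for S100P. The median over all windows was 14. A match is a description of letters and shows no binding. S100A2, S100A5, S100A13 and S100A16 have further RefSeq starts that are not shown, and the counts of motifs depend on the start chosen. The further window of S100A16 held a GC box, a TEAD motif and CCAAT, that of S100A5 an AP-1 motif, a TEAD motif and CCAAT, and that of S100A2 none.

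The make-up of the S100 signal differed between the libraries. Summed over the family it was 5759 FPKM (perturbed) and 10290.0 FPKM (control), 0.665% and 1.08% of all FPKM. S100A4 and S100A6 together made up 36.6% of the S100 FPKM in the perturbed library and 59.5% in the control. S100A10, S100A11 and S100A13 together made up 61.1% and 36.1%. S100A16 accounted for 0.706% and 2.55%. The S100A4 level was 6.47 times that of S100A10 in the control and 1.43 times in the perturbed library. In RNA from a whole culture, fewer cells with a transcript and less of it per cell cannot be told apart.

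**Figure D5:**
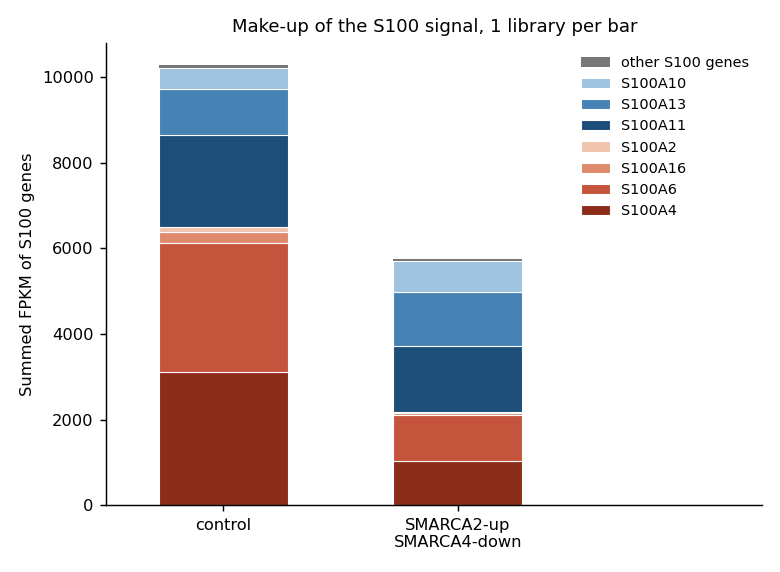
Summed FPKM of the 20 S100 genes in each library (1 library per bar, axis from 0), divided by gene. The bar is 10290.0 FPKM high for the control and 5759 FPKM for the perturbed library, and S100A4 and S100A6 (the darker reds) take 59.5% of the first and 36.6% of the second.

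S100 mRNAs are short, with a median of 698 bases over the 20 genes, so values of other short transcripts are given beside them. Among 992 genes with a transcript of 500 to 1300 bases and 5 FPKM or more in a library, 7.26% were lower and the median log2 ratio was -0.09. The 6 lower S100 genes are among the 992, whose median length was 999 bases, longer than S100A4 (600) and S100A6 (665). The part of length in the S100 values was not tested. With cubic trends on length, GC content and level removed, the 6 genes had log2 ratios from -2.35 (S100A16) to -1.21 (S100A2), and all 6 were still past the rule. The class of lengths was set after the values had been seen.

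No annexin was past 2-fold. Of 12 genes 8 passed the filter, and none was lower and none higher by the rule, where 7.61% and 7.85% of all genes were; with 8 genes nothing is read from that difference. The median log2 ratio was -0.13 over the 8, and 7 were below 0, as were 6301 of the 11785 genes tested. With the libraries scaled to a common sum the median was 0.0034, so no direction is given for the family. Among members within 2-fold, ANXA7 (log2 ratio -0.87) was nearest to the rule on the lower side. Among those past the rule, S100A3 (-1.42) was nearest to it. On the higher side the nearest were ANXA11 (0.58) and S100A10 (0.57).

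ANXA2, which clusters phosphatidylinositol lipids and actin at the membrane, was the most abundant annexin, at 1140.4 FPKM (perturbed) and 1157 FPKM (control), rank 148 in each. The interval of its ratio ran from 0.992-fold to 1.04-fold lower and includes no difference. The balance with its partner S100A10 differed: ANXA2 was 2.39 times the level of S100A10 in the control and 1.59 times in the perturbed library. ANXA5, which covers phosphatidylserine and is the usual probe of dying cells, was at 531 and 587 FPKM, 1.11-fold lower (1.07 to 1.14), with the sign turned (log2 ratio 0.11) once trends on length, GC and level were taken out. ANXA1, a glucocorticoid-induced protein that acts on formyl peptide receptors, was at 238 and 295 FPKM, 1.24-fold lower (1.18 to 1.30), and its sign turned in the same way (log2 ratio 0.07).

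ANXA11, which links RNA granules to lysosomes and binds S100A6, was at 225 and 150.2 FPKM, 1.496-fold higher (1.46 to 1.54). Its ratio to S100A6 was 0.207 in the perturbed library and 0.0501 in the control, since the pair went opposite ways. ANXA7, or synexin, which fuses secretory granules, was at 90.7 and 166 FPKM, 1.83-fold lower (1.73 to 1.94), the largest ratio among the annexins. ANXA7 and ANXA11 both have a long amino-terminal tail, yet they differed in opposite directions.

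ANXA6, which carries a doubled annexin core, was at 37.2 and 43.0 FPKM, 1.16-fold lower (1.05 to 1.27). ANXA3 was at 41.2 and 42.9 FPKM, 1.04-fold lower (0.923 to 1.17). ANXA4, an annexin of secretory epithelia, was at 27.1 and 29.6 FPKM, 1.09-fold lower (0.978 to 1.22). Both intervals include no difference. The sign of ANXA6, ANXA3 and ANXA4 also turned once the trends were taken out, and that of ANXA3 and ANXA4 with the libraries scaled to a common sum. ANXA8, ANXA10 and ANXA13, annexins of stratified, gastric and intestinal epithelia, were listed at 0 in both libraries, and ANXA9 at 0.0696 FPKM in the perturbed library and 0 in the control, which is about 1 fragment. ANXA8 has a near-identical copy, ANXA8L1, also listed at 0, and how fragments that match both were counted is not given in the sources.

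Genes that work with these proteins were counted from lists written down from textbook knowledge. Among 9 receptors of S100 proteins and annexin A1, 4 passed the filter, 1 was higher and 1 lower. ALCAM, an adhesion molecule that can bind S100B, was at 3.74 and 0.426 FPKM, 8.78-fold higher (5.41 to 15.8), on about 17.3 fragments in the control. MCAM, an adhesion molecule that can bind S100A8 and S100A9, was at 2.05 and 6.45 FPKM, 3.14-fold lower (2.31 to 4.28). AGER, named like the next 3 after its values were seen, is the receptor for advanced glycation end products and was at 0.437 and 0.506 FPKM, and TLR4, FPR1 and FPR2 were listed at 0 in both libraries. The counts of 1 compare with 7.85% and 7.61% of all genes, and neither ALCAM nor MCAM was past the rule with a pseudocount of 5 FPKM.

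Among 13 intracellular partners of S100 proteins, 1 was higher and none lower, with a median log2 ratio of 0.25. Of the 13, 10 had a log2 ratio above 0, as did 5484 of the 11785 genes tested. The count of 1 is close to the 7.85% of all genes that were higher, and was 2 with a common sum or a pseudocount of 0.1 FPKM. PPFIBP1, a liprin bound by S100A4, was at 5.79 and 1.21 FPKM, 4.77-fold higher (3.61 to 6.32), past the rule in all but the pseudocount of 5 FPKM and the 4-fold rule. MYH9, the myosin heavy chain that S100A4 binds, was at 24.3 and 12.7 FPKM. CACYBP, which S100A6 binds, was at 218 and 257 FPKM. MYH9 was chosen after its values were seen, as was CACYBP, because they are the targets of the lower genes. Neither was past 2-fold with the values as deposited. MYH9 was close to it, 1.91-fold higher (1.75 to 2.07) with a log2 ratio of 0.88. Scaling to a common sum moves log2 ratios by 0.14, so its place within 2-fold depends on the scale. S100PBP, set apart from the members above, was at 9.99 and 14.9 FPKM.

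Around the annexin A2 and S100A10 complex, which holds plasminogen and its activators at the cell surface, 6 of 8 genes passed the filter, 1 was higher (7.85% over all genes) and none lower. The median log2 ratio of the 6 was -0.38, and 4 were below 0, as were 6301 of the 11785 genes tested. The count of lower genes was 1 with a pseudocount of 0.1 FPKM and once trends on length, GC and level were taken out. PLGRKT, a plasminogen receptor of the membrane, was at 34.1 and 15.8 FPKM, 2.15-fold higher (1.70 to 2.74), and within 2-fold with a pseudocount of 5 FPKM. PLAU, which encodes urokinase, and its receptor PLAUR, also chosen after their values were seen, were within 2-fold. PLAU was at 8.82 FPKM (perturbed) and 10.7 FPKM (control), PLAUR at 10.1 and 5.84, and PLG was listed at 0 in both.

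The fused S100 genes join an S100 domain to long repeats and lie between S100A11 and S100A9. Of 7, only FLG, filaggrin, passed the filter. It was at 9.24 FPKM (perturbed) and 1.07 FPKM (control), 8.60-fold higher (7.12 to 10.5), the opposite direction to the 6 lower S100 genes of the same cluster. The other 6 stayed under 1 FPKM in both libraries, and 5 of them were listed at 0.

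Other calcium-binding genes were counted in the same way. Of 38 other EF-hand genes 26 passed the filter, 3 were higher and none lower, with a median log2 ratio of 0.10; over all genes tested 7.85% were higher. The count was 5 with the libraries scaled to a common sum, after centring, and once the trends were taken out, and 1 with a pseudocount of 5 FPKM. PDCD6, which recruits membrane repair factors, was at 886 and 369 FPKM, 2.40-fold higher (2.31 to 2.51). TNNC1 (2.63-fold, 1.35 to 4.94) and RCN3 (2.04-fold, 1.81 to 2.31) were higher as well, and neither was with a pseudocount of 5 FPKM. Of 24 genes for other calcium-dependent membrane-binding and repair proteins 14 passed, 4 were higher and none lower, with a median of 0.12. With so few genes nothing is read from the distance to 7.85%, and a pseudocount of 5 FPKM left 2 of the 4. ESYT2, a tether of endoplasmic reticulum to plasma membrane, was at 13.1 and 3.63 FPKM, 3.62-fold higher (3.07 to 4.27). CHMP4B, the main filament subunit of the ESCRT machinery that closes membrane wounds, was at 33.1 and 10.7 FPKM, 3.09-fold higher (2.55 to 3.77), and MYOF, myoferlin, at 12.4 and 5.27 FPKM, 2.36-fold higher (2.06 to 2.70). MYOF was within 2-fold with a pseudocount of 5 FPKM and once trends on length, GC and level were taken out (log2 ratio 0.97). The remaining higher gene, named after its values were seen, was CPNE2, a copine, at 13.02 and 5.69 FPKM, within 2-fold with a pseudocount of 5 FPKM.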

How the data were processed

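RNA-seq was available for 1 perturbed and 1 control culture of OVSAHO, grouped by the genotype labels. Per the labels' protocols, cDNA was made with a SMART-Seq HT kit and libraries with Nextera XT, which do not mark strand. The authors deposited FPKM values, 1 table per library, per the file headers. Tools in the submitters' processing notes are Cuffdiff 2.2.1, TopHat2 2.1.1, SAMtools 0.1.18 and Bowtie2 2.2.8, with hg19 as build. Annotation, filters and any scaling between libraries: not given in the sources used here. RefSeq on GRCh38.p14 gave gene order and sequences only.

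Depth was estimated from the values that single fragments take in genes with 1 RefSeq-matched GENCODE 29 transcript of at least 300 bases, with a shortening of 200 bases and a window of 2%. All 32 members had a transcript length. The scripts were tested on simulated data. With 1 library per group no p-value, SE or test was computed, and leaving out a library was impossible.

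Members and lists were chosen with earlier results of these data known. Named were SMARCA2 and SMARCA4, every member at 1 FPKM or more in a library, and up to 3 genes per list and direction past the rule, plus those marked as chosen after their values were seen and further markers that check the labels. Alternatives were pseudocounts of 0.1 and 5 FPKM, scaling to a common sum, centring, a trimmed mean of ratios, other filters, rules of 1.5-fold and 4-fold, and removed trends. Computations used Python 3.11.15, pandas 2.3.3 and SciPy 1.17.1.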

Additional observations from a re-analysis of the deposited data

How the results depend on the processing

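No paired analysis was possible because each group had 1 library. The log2 ratios of the 19 members that passed the filter kept their side of the 2-fold rule in all 170 alternative values computed, though 6 annexins and S100P changed sign within it. Settings that change only the filter leave each log2 ratio as it was, so their values among the 170 could not move. The count of 6 lower S100 genes held under the 11 alternatives except the 4-fold rule, which left 1, and the 1.5-fold rule gave 1 lower annexin, ANXA7. The S100 median of -1.42 was -1.07 with a pseudocount of 5 FPKM and -1.21 with trends on length, GC and level removed. It was 0 without a filter, where genes under 1 FPKM in both libraries enter. The annexin median of -0.13 was 0.0034 with libraries scaled to a common sum, -0.04 after centring (-0.036), -0.04 without a filter (-0.039) and 0.13 with trends removed. Over all genes, 925 higher and 897 lower became 1630 higher with a pseudocount of 0.1 FPKM, 219 and 380 with 5 FPKM, 546 higher at 5 FPKM or more in a library, 557 higher at 1 FPKM or more in both, 2253 and 2505 at 1.5-fold, and 71 and 84 at 4-fold. The cause of the shifts under scaling and trend removal was not tested. Depth limits S100P, S100A14, S100A3 and S100A5, and the lack of replicates limits every value.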

Other observations

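Some values bear on how far single S100 and annexin levels can be trusted. The ratio of S100A13 to S100A1, which overlap on opposite strands, was 34.6 in the perturbed library and 32.2 in the control. The ratio of S100A4 to S100A5, which overlap on the same strand, was 154 and 122. The processed copies of ANXA2 took few fragments: ANXA2P2 was at 0.305 and 0.399 FPKM, ANXA2P1 at 0 and 0.0967, and ANXA2P3 was listed at 0, beside 1140.4 and 1157 FPKM for ANXA2. ANXA2R, which encodes a receptor for annexin A2 and is no annexin, was at 2.65 and 4.56 FPKM, 1.72-fold lower (1.03 to 2.94).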
